A study of Homo sapiens with 2 samples.

Results

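The genes of MHC class I and class II antigen presentation were followed in L-540, an established Hodgkin lymphoma cell line, after treatment with vorinostat, a hydroxamate inhibitor of histone deacetylases, against untreated L-540 cells. Each group held 1 Affymetrix HG_U133A array of total RNA, so n = 1 per group throughout, no difference has a replicate check and no test was run. The labels give neither the dose nor the duration of treatment, and L-540 is 1 cell line grown in culture. The pathway was defined as every probe set whose platform symbols include one that starts with HLA- or is one of 31 listed genes. This gave 82 of the 22215 non-control probe sets, 76 of them annotated to 1 gene (36 genes) and 6 to several. With 1 array per group, treatment, culture and array cannot be told apart.

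Class I molecules pair a polymorphic heavy chain with beta-2 microglobulin and show peptides from the cytosol to CD8 T cells and natural killer cells. Those peptides are cut by the proteasome, carried into the endoplasmic reticulum by the TAP transporter, trimmed by ERAP1 and loaded with the help of tapasin. Class II molecules are alpha and beta heterodimers that show peptides from endosomes to CD4 T cells. They travel with the invariant chain CD74, are loaded under control of HLA-DM and HLA-DO, and are transcribed under the coactivator CIITA and the RFX complex. Loss of class I or class II from the surface of the tumour cells is a well-known trait of many Hodgkin lymphomas. Interferons raise transcription of most of these genes.

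The promoter windows of 7 members are printed because they carry the letters through which these genes are usually described as being controlled. They come from RefSeq on GRCh38.p14, each running from 250 bases before to 50 bases after an annotated start, and 27 of the 31 listed genes had at least 1 window. In the first set, all class II genes, capitals mark GNAACNGA and CCAAT, the box bound by NF-Y, on either strand. GNAACNGA matches the core of the X box that the RFX complex binds. It was chosen after these windows had been read, and a marked stretch need not be an X box. HLA-DRB1 lies at chr6:32589799-32590098, minus strand, HLA-DQA1 at chr6:32637156-32637455, plus strand, and HLA-DMB at chr6:32940979-32941278, minus strand.
HLA-DRB1: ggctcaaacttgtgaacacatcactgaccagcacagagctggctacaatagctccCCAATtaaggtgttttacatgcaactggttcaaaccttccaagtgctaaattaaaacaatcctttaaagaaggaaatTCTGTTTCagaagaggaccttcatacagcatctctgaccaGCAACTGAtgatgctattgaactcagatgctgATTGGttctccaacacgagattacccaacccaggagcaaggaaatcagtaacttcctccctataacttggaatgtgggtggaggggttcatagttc
HLA-DQA1: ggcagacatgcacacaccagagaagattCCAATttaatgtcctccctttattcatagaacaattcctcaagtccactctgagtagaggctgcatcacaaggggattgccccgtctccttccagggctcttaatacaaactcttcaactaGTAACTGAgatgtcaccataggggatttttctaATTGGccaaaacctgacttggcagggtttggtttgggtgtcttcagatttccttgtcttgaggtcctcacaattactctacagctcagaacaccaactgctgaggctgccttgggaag
HLA-DMB: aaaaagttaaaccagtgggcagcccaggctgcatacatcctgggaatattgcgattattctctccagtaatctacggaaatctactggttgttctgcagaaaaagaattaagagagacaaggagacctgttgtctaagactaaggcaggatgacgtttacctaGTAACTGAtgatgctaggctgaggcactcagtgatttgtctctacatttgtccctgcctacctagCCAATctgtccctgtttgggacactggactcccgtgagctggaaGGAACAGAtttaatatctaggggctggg

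In the second set, of class I genes, capitals mark the core of the interferon-stimulated response element on either strand, searched as GAAA, any pair of bases, then GAAA again. B2M lies at chr15:44711267-44711566, plus strand, TAP1 at chr6:32853655-32853954, minus strand, PSMB10 at chr16:67936801-67937100, minus strand, and ERAP1 at chr5:96807896-96808195, minus strand.
B2M: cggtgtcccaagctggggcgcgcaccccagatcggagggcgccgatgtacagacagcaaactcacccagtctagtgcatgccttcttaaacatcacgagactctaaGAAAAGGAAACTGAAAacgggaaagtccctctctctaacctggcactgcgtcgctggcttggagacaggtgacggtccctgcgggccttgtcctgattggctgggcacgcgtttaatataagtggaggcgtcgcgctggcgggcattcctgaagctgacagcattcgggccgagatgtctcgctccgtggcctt
TAP1: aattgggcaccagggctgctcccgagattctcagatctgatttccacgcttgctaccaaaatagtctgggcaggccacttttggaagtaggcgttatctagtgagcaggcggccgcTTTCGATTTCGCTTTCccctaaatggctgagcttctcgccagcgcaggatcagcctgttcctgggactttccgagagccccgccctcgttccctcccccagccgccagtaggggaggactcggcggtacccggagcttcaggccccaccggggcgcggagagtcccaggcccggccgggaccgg
PSMB10: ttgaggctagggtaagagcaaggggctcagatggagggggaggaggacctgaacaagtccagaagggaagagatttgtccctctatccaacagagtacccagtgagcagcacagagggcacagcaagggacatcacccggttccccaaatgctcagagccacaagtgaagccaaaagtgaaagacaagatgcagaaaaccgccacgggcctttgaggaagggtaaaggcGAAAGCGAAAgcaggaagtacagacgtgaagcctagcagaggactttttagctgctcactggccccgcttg
ERAP1: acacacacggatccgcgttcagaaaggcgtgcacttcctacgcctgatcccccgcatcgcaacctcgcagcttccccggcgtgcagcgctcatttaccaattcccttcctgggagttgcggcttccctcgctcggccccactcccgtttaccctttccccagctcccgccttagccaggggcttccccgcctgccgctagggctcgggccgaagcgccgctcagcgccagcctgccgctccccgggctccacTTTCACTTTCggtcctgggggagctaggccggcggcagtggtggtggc
In B2M and in TAP1 the capitals hold 2 overlapping matches. The TAP1 window overlaps that of PSMB9, which is transcribed from the opposite strand.

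A signal is the MAS5 intensity of a probe set on a linear scale. Signals under a floor of 68.9 units were set to the floor, probe sets at the floor on both arrays were counted as not measured, and a ratio is vorinostat over untreated. Both arrays had a trimmed mean of 500.2 units, and 58.8% of non-control probe sets on the vorinostat array and 61.2% on the untreated array lay above the floor. Over 8277 measured genes the median log2 ratio was -0.04, and 42.4% of the genes at least 2-fold apart were higher. Scaling both arrays to equal medians moved that median to 0.08 and that share to 58.8%. Of the Hodgkin cell markers 8 of 10 were measured. The brightest signals of all 10, those at the floor included, summed to 37422 with vorinostat and 48969 untreated. Sums for the other cell types also include markers at the floor. Of the 8 measured Hodgkin markers TNFRSF8, the gene of CD30, and the AP-1 gene BATF3 were at least 2-fold lower, where 5.12% of all genes were. None was at least 2-fold higher, where 3.77% of all genes were. FSCN1, TRAF1, FUT4 and LGALS1 were 1.70-fold, 1.54-fold, 1.54-fold and 1.12-fold lower, and IRF4 and GATA3 were 1.22-fold and 1.33-fold higher. The median log2 ratio of the 8 was -0.62. Of the T cell markers 4 of 7 were measured (summed signal of all 7, 1316 with vorinostat and 5084 untreated). Of the B cell markers 2 of 5 were measured (summed signal of all 5, 349.8 with vorinostat and 609.7 untreated). CD247 made up most of the T cell sum, with 942 with vorinostat and 4463 untreated, and CD3D, CD3G and CD7 were at the floor on both arrays. Of the monocyte and macrophage markers 6 of 8 were at the floor on both arrays, CD14 and LYZ included, with a summed signal of 370.4 with vorinostat and 451.1 untreated. Of 7 dendritic cell markers 5 were at the floor on both arrays, and CCR7, which Hodgkin cells also express, made up most of the summed signal of 7814 with vorinostat and 7136 untreated. Of 7 fibroblast and endothelial markers 3 were at the floor on both arrays, with a summed signal of 558.6 with vorinostat and 611.5 untreated. The part of these markers in the ratios below was not tested.

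Of the 82 probe sets 68 were measured and 14 were at the floor on both arrays. Those 14 belonged to HLA-DQB1, HLA-DQB2, HLA-DQA1, HLA-DRB4, HLA-DRB6, HLA-DOA, CTSS, ERAP1 and TAP2, and HLA-DQB2 alone of the 36 genes had no measured probe set. None of the 68 was at least 2-fold higher with vorinostat (0 of 68, where 3.65% of all 14194 measured probe sets were) and 4 were at least 2-fold lower (5.88%, where 5.47% of all were). The 4 were 1 probe set each of ERAP1, PSMB10, RFX5 and HLA-F-AS1, and the share they make up is near that of all probe sets. Counted by gene, on each gene's brightest probe set, 0 of 35 were at least 2-fold higher, where 3.77% of all genes were, and 3 of 35 (8.57%) at least 2-fold lower, where 5.12% were. At 1.5-fold, 3 of 68 probe sets (4.41%) were higher, where 12.5% of all were, and 14 of 68 (20.6%) lower, where 16.1% were. By gene 2 of 35 (5.71%) were higher, where 12.7% of all were, and 8 of 35 (22.9%) lower, where 15.5% were. The shares higher were thus below those of all features and the shares lower near or above them, with no test of either. The shares also depended on scaling. At equal medians 0 class I and 0 class II genes were at least 2-fold lower, and HLA-F-AS1 still was. HLA-DOB was then at least 2-fold higher. Of all 8261 genes measured at equal medians 321 were lower and 459 higher. The SD of the log2 ratio over the 68 probe sets was 0.45, against 0.59 over all measured probe sets. These 2 values are not matched for brightness, and the spread was smaller among bright probe sets. At a geometric mean signal of at least 2000 units it was 0.46 over all 1741 probe sets and 0.26 over 37 of the pathway. Many of the 37 share sequence, so they do not count as separate measurements. For a sense of scale, in 2428 genes with several probe sets above the floor on both arrays, the 2 brightest probe sets of a gene differed by a median of 0.25 in log2 ratio, with a 95th percentile of 0.84. In a bulk RNA sample, fewer cells that express a gene and less RNA per cell cannot be told apart.

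**Figure D1:**
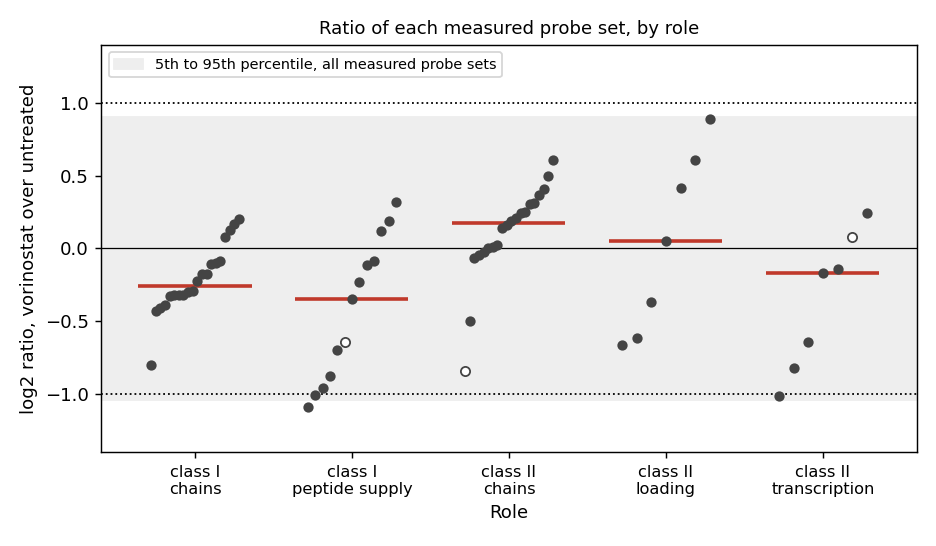
Log2 ratio (vorinostat over untreated, vertical axis) of each measured probe set by role (horizontal axis), at the deposited scaling; open points have 1 array at the floor, red lines are medians, the grey band runs from the 5th to the 95th percentile of all measured probe sets (-1.04 to 0.90) and dotted lines mark 2-fold. Class I chains centre on -0.26 and class II chains on 0.18, and of the probe sets plotted those at or beyond the lower dotted line belong to ERAP1, PSMB10 and RFX5; the antisense RNA HLA-F-AS1, which is lower still, belongs to no role and is not plotted.

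The class I heavy chain genes had some of the brightest signals on both arrays and were slightly lower with vorinostat. Over the 18 heavy chain probe sets 15 had a ratio below 1, and the median log2 ratio was -0.30. With B2M it was 16 of 20 below 1 and a median of -0.26, or 13 of 20 and -0.13 when the arrays were scaled to equal medians. Among all 1741 probe sets with a geometric mean signal of at least 2000 units 50.6% had a ratio below 1, against 77.8% of the 18 class I chain probe sets of that brightness. At that brightness 2.01% of all probe sets passed 2-fold upwards and 2.41% downwards, and 0 of these 18 did either. These probe sets do not count as separate measurements, since 18 of the 20 carry a suffix that marks sequence shared with other genes.

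HLA-C, a classical heavy chain gene, had a signal of 18123 with vorinostat and 22608 untreated on its brightest probe set (1.25-fold lower). Its other probe sets had signals of 18761 with vorinostat and 20252 untreated, 17758 and 20706, and 5787 and 7815 in the same order, and each of the 4 was lower, with log2 ratios of -0.43 to -0.11. HLA-B, another classical heavy chain gene, had signals of 19348 with vorinostat and 20773 untreated, 14576 and 18320, and 12687 and 14308 on its 3 probe sets. All 3 were lower as deposited, by 1.07 to 1.26-fold, and the brightest turned to a log2 ratio of 0.03 at equal medians.

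HLA-E, whose product presents leader peptides of other class I chains to natural killer cell receptors, had signals of 6874 with vorinostat and 7760.2 untreated on its brightest probe set (1.13-fold lower). Its probe set without a shared-sequence suffix had 777 with vorinostat and 1017 untreated (1.31-fold lower), and the remaining one was 1.25-fold lower. The probe sets of HLA-F and HLA-G, further nonclassical heavy chain genes, went in both directions. HLA-F had 6731 with vorinostat and 8392 untreated on its brightest probe set (1.25-fold lower), 5448 and 4852 on another (1.12-fold higher), and 234.6 and 408.3 on the one without a shared-sequence suffix (1.74-fold lower). Its 3 log2 ratios spanned 0.97. HLA-G is normally restricted to placenta and a few other tissues; its 4 probe sets all carry shared-sequence suffixes, and their signals of 2246 to 10916 with vorinostat and 2061 to 13348 untreated cannot be assigned to HLA-G alone. The pseudogene HLA-J had 3002 with vorinostat and 3699 untreated (1.23-fold lower).

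B2M, the light chain shared by all class I molecules, had signals of 20991 with vorinostat and 19856 untreated on one probe set (1.06-fold higher) and 18015 and 19177 on the other (1.06-fold lower). The 2 arrays thus had nearly the same B2M signal, with the sign depending on the probe set. HLA-F-AS1, the antisense RNA of the HLA-F locus, had the lowest ratio of the 65 probe sets above the floor on both arrays, with 156.9 with vorinostat and 371.7 untreated (2.37-fold lower).

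**Figure D2:**
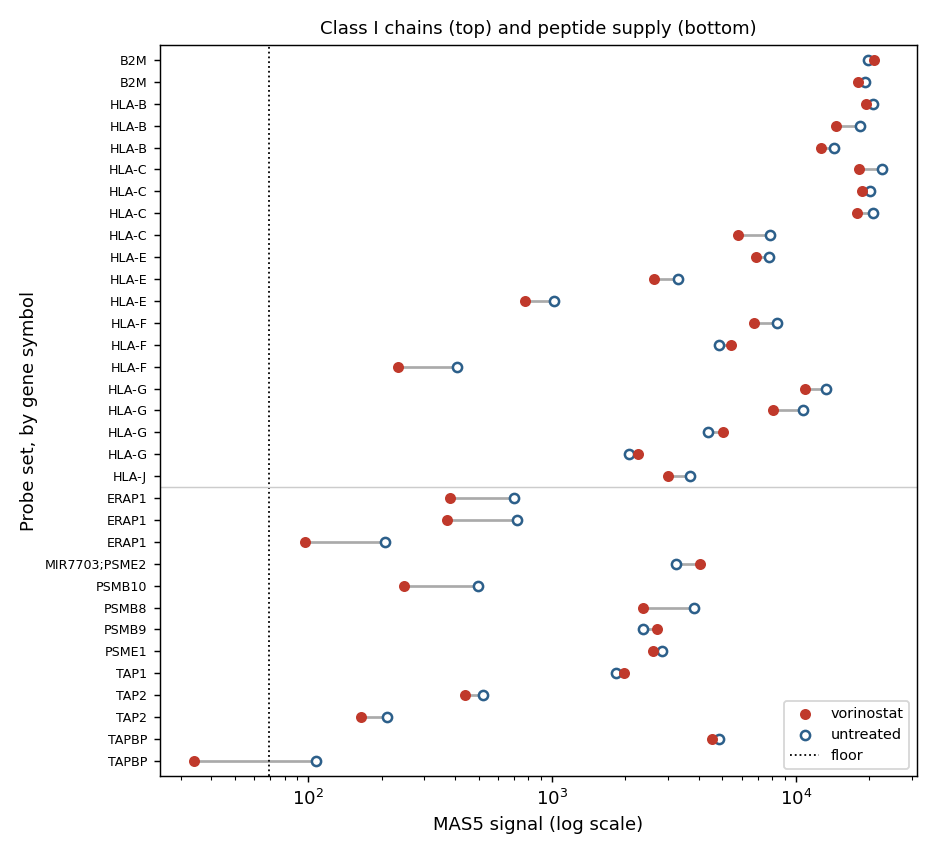
MAS5 signal (horizontal log axis) of each measured class I probe set, labelled by gene symbol (vertical axis), with filled red points for vorinostat, open blue points for untreated and a dotted line at the floor of 68.9 units. Chains stand above the grey line, with pairs of points close together but for the dimmest HLA-F probe set, and below it ERAP1, PSMB10 and PSMB8 have wider gaps than TAP1, TAP2, PSMB9 and PSME1.

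The genes that supply class I with peptides were less uniform than the chains. Of 13 measured probe sets 10 had a ratio below 1, where 53.9% of all did, and 2 were at least 2-fold lower, where 5.47% of all were, with a median log2 ratio of -0.35. By gene, 1 of 8 was at least 2-fold lower, where 5.12% of all genes were, and 0 were higher, where 3.77% were. The median log2 ratio by gene was -0.17. ERAP1, the aminopeptidase that trims peptides in the endoplasmic reticulum, had signals of 381.8 with vorinostat and 700.7 untreated (1.84-fold lower), 369.6 and 717.4 (1.94-fold lower), and 96.8 and 206.3 (2.13-fold lower). All 3 measured probe sets were lower by a similar amount, their log2 ratios lying within 0.21 of each other, and the other 2 were at the floor on both arrays.

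The proteasome exchanges its catalytic subunits PSMB5, PSMB6 and PSMB7 for PSMB8, PSMB9 and PSMB10 to form the immunoproteasome. PSMB10 had 246.8 with vorinostat and 497 untreated (2.01-fold lower), and PSMB8 had 2356 with vorinostat and 3814 untreated (1.62-fold lower). PSMB9 went the other way, with 2693 with vorinostat and 2363 untreated (1.14-fold higher). The ratio of PSMB10 sat at the 2-fold limit and was short of it in 4 of 9 alternative settings; over all 9 the log2 ratio ran from -1.01 to -0.88. Among the constitutive counterparts PSMB5 had 1006 with vorinostat and 1519 untreated (1.51-fold lower), PSMB6 was 1.12-fold lower and PSMB7 1.08-fold higher. The 3 immunoproteasome subunits thus did not share a sign, and neither did the 3 they replace. The log2 ratios of PSMB9, PSMB6 and PSMB7 were only 0.19, -0.17 and 0.12. Each lay within 0.25, the median difference between the 2 brightest probe sets of a gene, so no direction can be read for them.

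The proteasome activator PA28 is formed by PSME1 and PSME2. PSME1 had 2604 with vorinostat and 2821 untreated (1.08-fold lower, or a log2 ratio of 0.01 at equal medians). The probe set annotated both to PSME2 and to the microRNA gene MIR7703 had 4031 with vorinostat and 3236 untreated (1.25-fold higher). TAP1, a subunit of the peptide transporter, had 1980.4 with vorinostat and 1824 untreated (1.09-fold higher). Its partner TAP2 had 441.4 with vorinostat and 519 untreated, and 164.6 and 209.6 on a dimmer probe set (1.18-fold and 1.27-fold lower). TAPBP, which encodes tapasin, had 4549 with vorinostat and 4824 untreated on its brightest probe set (1.06-fold lower, or a log2 ratio of 0.04 at equal medians). The second TAPBP probe set was under the floor with vorinostat and had 107.5 untreated, at least 1.56-fold lower. Its size depends on the floor, and with a floor at the brightest poly-A control the class I probe sets at least 2-fold lower numbered 3.

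The response element core was found in windows of 8 of the 9 peptide supply genes (8 of 12 windows), where 3.57% of all 35116 promoter windows hold them. They were in 2 of 5 class I chain genes (B2M and HLA-F, 2 of 7 windows) and in 1 of 3 class II transcription genes (RFX5, 1 of 7 windows). No match was found in the 8 class II chain and 5 class II loading genes. Among the supply genes with a match the log2 ratios ran from -1.01 for PSMB10 to 0.32 for the PSME2 probe set, and PSMB9, the 1 gene without a match in its window, had 0.19. Genes with the core therefore had log2 ratios on both sides of 0, as the printed windows of TAP1 and PSMB10 show. TTCNNNGAA, typical of STAT dimer sites, was in windows of 2 of the 9 supply genes (2 of 12 windows) and 7.66% of all windows.

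Class II chain transcripts were abundant in both cultures, and most of their probe sets were slightly higher with vorinostat. Of 28 probe sets 20 were measured, 14 of them with a ratio above 1, and the median log2 ratio was 0.18. By gene 5 of 9 had a ratio above 1 and 4 below, with a median of 0.01. Those below were HLA-DRA and HLA-DRB1, at log2 ratios of -0.06 and -0.03, and the pseudogenes HLA-DRB6 and HLA-DPA2, at -0.50 and at most -0.84. At equal medians HLA-DRA and HLA-DRB1 had 0.06 and 0.10, so the count by gene also depended on scaling. The 20 probe sets do not count as separate measurements either, since several belong to the same gene or carry a suffix that marks shared sequence. Over the 20 probe sets the numbers also moved with scaling. At equal medians 18 of 20 were above 1 and the median was 0.31. None was 2-fold apart in either direction. Over all measured probe sets 46.1% had a ratio above 1. Among those with a geometric mean signal of at least 2000 units, 4 of 12 class II chain probe sets had a ratio below 1, where 50.6% of all such probe sets had.

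HLA-DRA, the invariant alpha chain gene of HLA-DR, had 8015 with vorinostat and 8383 untreated, and 7152 and 7377 on its second probe set (1.05-fold and 1.03-fold lower). HLA-DRB1, its main beta chain gene, had 11248 with vorinostat and 11446 untreated (1.02-fold lower). HLA-DRB4, a beta chain gene that is present on some haplotypes alone, had 1816 with vorinostat and 1807 untreated (log2 ratio 0.01). All 3 genes lay within 1.05-fold, and HLA-DRA and HLA-DRB1 turned to log2 ratios of 0.06 and 0.10 at equal medians. Of the 4 probe sets annotated to several HLA-DR and HLA-DQ genes, the brightest had 10902 with vorinostat and 10905 untreated. The dimmest had 326.1 with vorinostat and 214 untreated, the highest ratio of the class II chain probe sets (1.52-fold higher). The pseudogene HLA-DRB6 had 634.6 with vorinostat and 898.9 untreated (1.42-fold lower).

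HLA-DPA1, an alpha chain gene, had 8180.0 with vorinostat and 7415 untreated, 5408 and 4738, and 716.8 and 601.5 on its 3 probe sets (1.10 to 1.19-fold higher). HLA-DPB1, its beta chain partner, had 5105 with vorinostat and 4419 untreated (1.16-fold higher). HLA-DQA1, an alpha chain gene, had 794.8 with vorinostat and 599.5 untreated (1.33-fold higher), and the probe set it shares with HLA-DQA2 had 6063 with vorinostat and 4878 untreated (1.24-fold higher). HLA-DQB1, its beta chain partner, had 2521 with vorinostat and 1958 untreated on its brightest probe set (1.29-fold higher). All 4 measured probe sets of HLA-DQB1 were higher, by 1.12 to 1.41-fold, and its other 3 were at the floor on both arrays. Every measured probe set annotated to protein-coding HLA-DP or HLA-DQ genes alone was thus higher with vorinostat, each by less than 1.5-fold. The pseudogene HLA-DPA2 was under the floor with vorinostat and had 123.4 untreated, at least 1.79-fold lower.

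**Figure D3:**
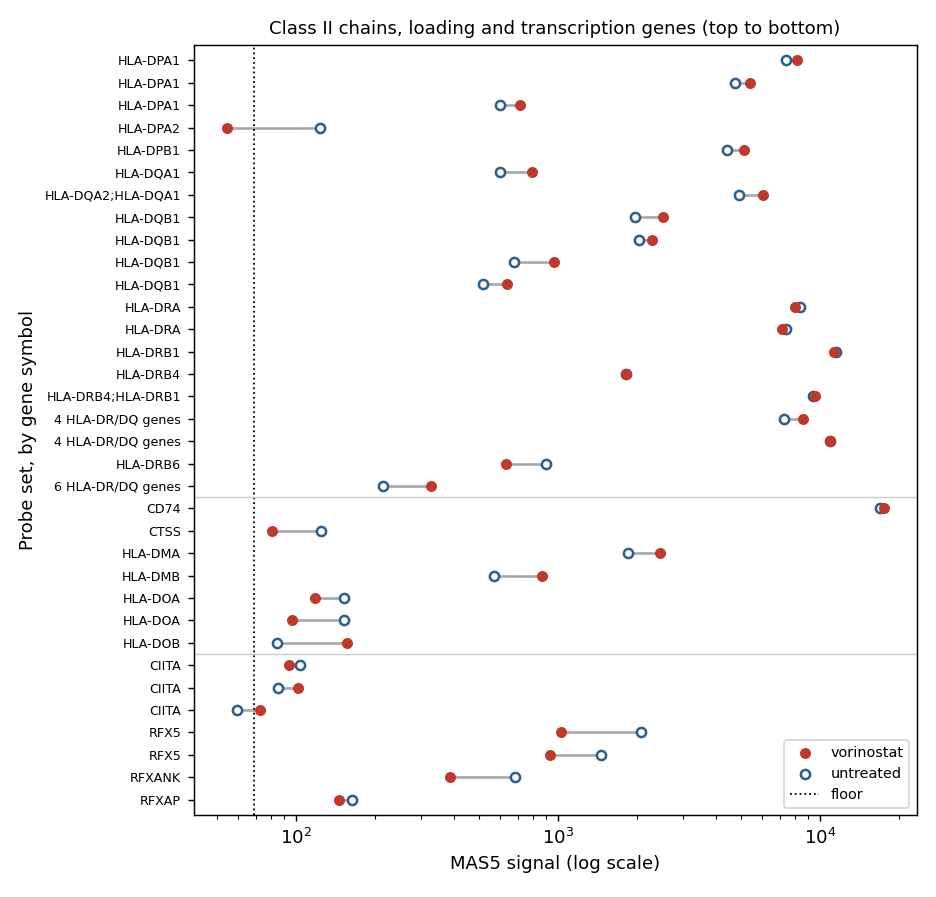
MAS5 signal (horizontal log axis) of each measured class II probe set, labelled by gene symbol (vertical axis), with filled red points for vorinostat, open blue points for untreated and a dotted line at the floor; grey lines part chains, loading genes and transcription genes, and probe sets of more than 2 genes are labelled by the number of genes. The points of HLA-DRA, HLA-DRB1 and HLA-DRB4 nearly coincide, HLA-DPA1, HLA-DPB1, HLA-DQA1, HLA-DQB1, HLA-DMA, HLA-DMB and HLA-DOB have the vorinostat point to the right, and HLA-DPA2, HLA-DRB6, RFX5 and RFXANK have it to the left.

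The genes that load class II molecules had ratios in both directions. HLA-DM, the dimer that exchanges the invariant chain fragment for peptide, had both chain genes higher. HLA-DMA had 2455 with vorinostat and 1842 untreated (1.33-fold higher), and HLA-DMB had 870.2 with vorinostat and 570.9 untreated (1.52-fold higher). HLA-DO, the dimer that inhibits HLA-DM, had chain genes with ratios in opposite directions, both near the floor. HLA-DOB had 156.8 with vorinostat and 84.7 untreated (1.85-fold higher), the highest ratio of the 68 measured probe sets, and it passed 2-fold under equal medians, quantile normalization and loess. HLA-DOA had 117.9 with vorinostat and 152.2 untreated, and 96.5 and 152.7 on its second measured probe set (1.29-fold and 1.58-fold lower).

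CD74, the invariant chain gene, had 17446 with vorinostat and 16837 untreated (1.04-fold higher), among the brightest signals of the pathway on both arrays. CTSS, the protease that clips the invariant chain, had 81.0 with vorinostat and 123.9 untreated (1.53-fold lower), and its other probe set was at the floor on both arrays. The loading genes as a whole had 4 of 7 measured probe sets above 1 and a median log2 ratio of 0.05, with none 2-fold apart.

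Of the regulators of class II transcription RFX5 and RFXANK were lower, and RFXAP and CIITA lay near a ratio of 1. RFX5, the DNA-binding subunit of the RFX complex, had 1029 with vorinostat and 2075 untreated on its brightest probe set (2.02-fold lower) and 932 and 1454 on the other (1.56-fold lower). Both probe sets were lower, and the median of the 2 was a log2 ratio of -0.83, short of 2-fold. RFXANK, the ankyrin repeat subunit, had 387.3 with vorinostat and 684 untreated (1.77-fold lower). RFXAP, the third subunit, had 145.3 with vorinostat and 163.1 untreated (1.12-fold lower). CIITA, the coactivator that sets class II levels, had signals just above the floor: 94.1 with vorinostat and 103.6 untreated, 101.4 and 85.5, and 72.6 with vorinostat against a value under the floor untreated. Its probe sets went in both directions and gave log2 ratios of -0.14, 0.25 and at least 0.08, so no direction can be read for CIITA. By gene 1 of these 4 was at least 2-fold lower, where 5.12% of all genes were, and 0 were higher, where 3.77% were. The median log2 ratio was -0.49 over the 4 genes and -0.17 over their 7 probe sets.

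CCAAT was found in windows of 7 of 8 class II chain genes, all 5 class II loading genes with a window and all 5 class I chain genes. A gene with several windows has more chances of a match. Counted by window CCAAT was in 7 of 9, 5 of 5 and 5 of 7, where 34.6% of all windows hold it. GNAACNGA, chosen after the sequences had been read, was in 4 of 8 class II chain genes (4 of 9 windows) and 3 of 5 loading genes (3 of 5 windows). It was in 1 of 5 class I chain genes (1 of 7 windows), and in 12.9% of all windows. That class I gene was B2M, where the match lies within the response element core. Because GNAACNGA was chosen from these windows, its counts beside the 12.9% are no separate support for an X box. As printed, HLA-DRB1, HLA-DQA1 and HLA-DMB all hold CCAAT and GNAACNGA, and their log2 ratios were -0.03, 0.41 and 0.61. GCAAC, which can lie within GNAACNGA, is in 33.6% of all windows and was in 4 of 8 class II chain genes (4 of 9 windows). TGACG, a part of the cyclic AMP response element, is in 24.6% of all windows and was in 3 of these 8 genes (4 of 9 windows). The full element TGACGTCA, which contains it, is in 1.85% of all windows and was in 0 of the 41 windows of the pathway.

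Several of these genes neighbour each other in the class II region of chromosome 6, which also holds the TAP and immunoproteasome genes. In the order of the reference annotation TAP2, PSMB8, TAP1 and PSMB9 follow each other between HLA-DOB and HLA-DMB. PSMB8 was 1.62-fold lower, whereas TAP1 and PSMB9 beside it were 1.09-fold and 1.14-fold higher. Further along, BRD2, a bromodomain gene that has no role in presentation and lies between HLA-DMA and HLA-DOA, had 1118 with vorinostat and 1761 untreated (1.57-fold lower). Neighbours thus differed in direction within the region.

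**Figure D4:**
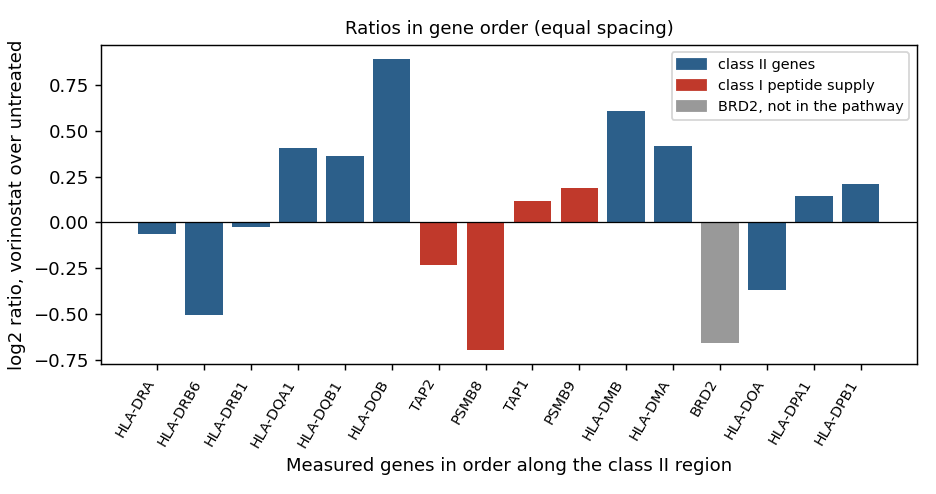
Log2 ratio (vorinostat over untreated, vertical axis) of each measured gene's brightest probe set, in the order of the genes along the class II region with equal spacing (horizontal axis). Bars run from -0.70 for PSMB8 to 0.89 for HLA-DOB, and bars of both signs stand side by side; HLA-DRA and HLA-DRB1 turn positive at equal medians.

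Other genes of the pathway were read from 6 lists, whose counts stand against 3.77% of all genes at least 2-fold higher and 5.12% lower; with 6 to 15 measured genes a list, nothing particular to a list can be read from them. Of 7 measured chaperones of class I folding 0 were 2-fold apart (median log2 ratio 0.19). CALR, which encodes the lectin chaperone calreticulin, had 6757 with vorinostat and 4639.9 untreated (1.46-fold higher), and its loading partner PDIA3 had 3259 with vorinostat and 2518 untreated (1.29-fold higher). CANX, the membrane-bound lectin chaperone, was 1.20-fold lower, and TAPBPL, a tapasin relative that edits peptides, had 112.2 with vorinostat and 168.2 untreated (log2 ratio -0.58). Of 15 measured constitutive proteasome genes 0 were 2-fold apart, and the median was 0.07. POMP, the proteasome assembly factor, was 1.32-fold higher, PSME3 1.19-fold higher and PSMA1 1.18-fold lower.

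Of 8 measured genes of endosomal processing 1 was at least 2-fold lower and 0 higher, with a median of 0.27. The lower one was CTSH, a cathepsin, with a signal under the floor with vorinostat and 140.5 untreated (at least 2.04-fold lower). RAB7A, the GTPase of late endosomes, had 2152 with vorinostat and 1275 untreated (1.69-fold higher). LAMP1, a lysosomal membrane protein gene, was 1.26-fold and the protease gene CTSB 1.29-fold higher.

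Of 6 measured MHC-like molecules 1 was at least 2-fold higher and 0 lower, with a median of -0.29. MICA, a stress-induced ligand of the activating receptor NKG2D that is encoded within the MHC, had 965 with vorinostat and 382.8 untreated (2.52-fold higher). Its ratio stayed above 2-fold in all 9 alternative settings that kept the threshold, at log2 ratios of 1.30 to 1.46. CD1A, HFE and ULBP1 had log2 ratios of -0.63, -0.48 and at most -0.43. CD1A presents lipids, HFE controls iron uptake and ULBP1 is another NKG2D ligand.

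Of 14 measured regulators of MHC transcription 2 were at least 2-fold lower and 0 higher, with a median of 0.26. PRDM1, the repressor that drives plasma cell differentiation and also silences CIITA, had 801 with vorinostat and 2712 untreated (3.39-fold lower). NFYC, a subunit of the CCAAT-binding factor NF-Y, had 471.3 with vorinostat and 969.9 untreated on its brightest probe set (2.06-fold lower), and the median over its 4 probe sets was -0.89, short of 2-fold. IFNGR2, a chain of the interferon gamma receptor, had 1365 with vorinostat and 2723 untreated (1.99-fold lower). IRF2, which competes with IRF1 at interferon response elements, was 1.55-fold lower.

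Of 10 measured co-stimulation and adhesion genes 3 were at least 2-fold lower and 0 higher, with a median of -0.21. CD86, a ligand of CD28, had 1979 with vorinostat and 4373 untreated (2.21-fold lower). CD70, a ligand of CD27, had 279 with vorinostat and 622.4 untreated (2.23-fold lower), and the adhesion gene ICAM1 had 954 with vorinostat and 2822 untreated (2.96-fold lower). CD40, a receptor on presenting cells, had 422.7 with vorinostat and 262.2 untreated (1.61-fold higher).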

How the data were processed

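Total RNA of 2 L-540 cultures, 1 treated with vorinostat and 1 untreated, was hybridised to 1 HG_U133A array each. The authors deposited intensity values per probe set on a linear scale, for which the submitters' processing notes name MAS5; its version, scaling target and detection calls are not given in the sources used here. The number of arrays limits the precision.

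Of 22283 probe sets 68 controls were left out. Symbols came from the platform annotation, and gene order and promoter windows from RefSeq (GRCh38.p14). A probe set with several symbols was given to no gene. The 40th percentile of non-control signals over both arrays served as floor, a gene was represented by its brightest probe set, and 2-fold was a rule of size with no test. The floor lay above the highest poly-A control (43.1 units). Beside the members, the lists' genes named were up to 4 per list with the largest ratios. Members, lists and motifs were chosen with earlier results of these data known. The steps were tested on simulated data with Python 3.11.15, numpy 2.4.6, pandas 2.3.3 and statsmodels 0.14.6 (lowess over a fraction of 0.3).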

Additional observations from a re-analysis of the deposited data

How the results depend on the processing

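Alternatives were equal medians, quantile normalization, loess on signal level, floors set lower (25th percentile or the brightest poly-A control) or higher (60th percentile), an offset of 16 with no floor, the median over probe sets, no shared-sequence suffix, and thresholds of 1.5-fold and 3-fold. No paired analysis was possible because each group has 1 array. A list's median counted as moved past 0.25 in log2 ratio, the median difference between the 2 brightest probe sets of a gene, and a number of probe sets or genes past 1.5 times; 345 of 422 list values did neither. Of 293 ratios of member genes 279 stayed on their side of 2-fold and 0 of those past it changed sign; of the list genes named, CTSH was short of 2-fold in 4 settings and NFYC in 2, and IFNGR2 passed it in 2. In all, 27 of 35 member genes kept 1 sign throughout; B2M, HLA-B, HLA-DRA, HLA-DRB1, HLA-DRB4, CIITA, PSME1 and TAPBP did not. The cause of the moves was not tested.

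Over all genes, 424 of 8277 were at least 2-fold lower and 312 higher as deposited. In that order they were 321 and 459 of 8261 at equal medians, 391 and 354 of 8268 after quantile normalization, and 396 and 343 of 8269 after loess. At 1.5-fold they were 1283 and 1051, and at 3-fold 77 and 45. They were 251 and 217 of 5814 with the 60th percentile floor, 707 and 471 of 11963 with the offset, and 250 and 219 of 5172 without suffixes. Class I probe sets at least 2-fold lower (main value 2) numbered 0 under equal medians, quantile normalization, loess and 3-fold, 1 with the 60th percentile floor and with the offset, and 7 at 1.5-fold. Class I genes (main value 1) and peptide supply genes (main value 1) numbered 0 under the 3 scalings, the offset and 3-fold, 2 without shared-sequence suffixes and 3 at 1.5-fold. Class II probe sets lower (main value 1) numbered 0 under equal medians, without shared-sequence suffixes and at 3-fold, 2 with the 25th percentile and poly-A floors (class II chains 1, HLA-DPA2) and 6 at 1.5-fold. Class II genes lower (main value 1) numbered 0 under equal medians, the median over probe sets, no shared-sequence suffix and 3-fold, 2 with the lower floors and 4 at 1.5-fold. Of all genes 689 of 10100 were lower and 459 higher with the 25th percentile floor. With the poly-A floor they were 540 and 360 of 9367, and by the median over probe sets 398 and 289 of 8277. Class II probe sets and genes higher (main value 0) each numbered 1, HLA-DOB, under the 3 scalings, and 3 and 2 at 1.5-fold. Chain probe sets at 1.5-fold had 1 lower in each class and 1 higher in class II. The class I chain median was -0.59 on the 2 probe sets without a suffix.

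Class II transcription genes lower (main value 1) numbered 0 under equal medians, the median over probe sets, no suffix and 3-fold, and 2 at 1.5-fold; their median was -0.92 on 2 genes with the 60th percentile floor and -0.17 on 3 genes without suffixes. In the other lists, endosomal genes lower numbered 0 under the 3 scalings, the 60th percentile floor, no suffix and 3-fold, and 1 was higher at 1.5-fold. Regulators lower numbered 1 under equal medians, the median over probe sets and 3-fold, 0 without suffixes and 4 at 1.5-fold. MHC-like genes had 0 higher at 3-fold and 1 lower at 1.5-fold, with median log2 ratios of -0.030 at the 60th percentile floor and 0.012 with the offset. Co-stimulation genes had 1 higher at the 25th percentile floor, the offset and 1.5-fold, 0 lower at 3-fold and a median of -0.85 at the 60th percentile floor. Constitutive proteasome genes had 1 lower at 1.5-fold.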
